A study of Rattus norvegicus with 8 samples.

Results

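The circadian clock and its direct outputs were represented by 10 genes, namely Arntl (also called Bmal1), Clock, Per1, Per2, Per3, Cry1, Nr1d1, Nr1d2, Dbp and Tef. They were chosen by name and not by a cutoff on any measured value, although earlier results of these data were known. Every probe for a gene that carried 1 of these names in the annotation of the array was taken, which gave 16 probes on 25 spots for 10 of the 27110 named genes on the array. Of the 10 genes, 9 had at least 1 probe bright enough to be tested. Both probes of Clock were not well above background on any of the 7 arrays with complete background marks, so Clock has no measured level here. The 9 tested genes had 12 tested probes, and each gene was described by its brightest tested probe.

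RNA was measured on 8 rat expression arrays, with 2 samples of mature hepatocytes (MHs), 3 samples of small hepatocyte-like progenitor cell (SHPC) clusters from control livers and 3 samples of SHPC clusters from livers that had received bone marrow-derived mesenchymal cells (BM-MCs). According to the methods, all recipients were female F344 rats given retrorsine, a plant alkaloid that blocks the division of resident hepatocytes, followed by partial hepatectomy, and the BM-MCs came from male DPPIV-positive F344 rats and were given through the spleen. The labels place the MHs and the control SHPCs in control recipients, although the study also describes MHs cut next to SHPCs in livers that had received BM-MCs. The labels list every animal as the F344 DPPIV-positive strain, whereas the methods give the recipients as DPPIV-negative. All cells were cut from hematoxylin-stained frozen sections with an ultraviolet laser (laser microdissection, LMD). A sample is therefore a collection of cut areas, of SHPC clusters or of MHs, with whatever cells lay between them. It is not stated which animal each sample came from, so the p-values reflect a spread between samples that may be technical. The age of the recipients and the hour at which the livers were taken are not given in the sources used here.

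A single slide, scanned 1 time, carried the 8 arrays. Its first set of 4 held no BM-MC sample, so with the set of arrays as a block the SHPC groups are compared through control replicate 3 alone, and SHPCs with BM-MCs are tied to MHs only through the controls. Values for the BM-MC samples with this block rest on that control. Between 57.0% and 61.5% of spots were well above background, and 0 spots were saturated. For control SHPC replicate 2 these values cover only 19479 of the 58717 gene spots. Control SHPC replicates 1 and 2 lay closest together of all replicate pairs, with a median absolute log2 difference of 0.138 over the tested probes against 0.212 to 0.234 for the 6 other pairs. The 6 hepatocyte markers, which include albumin, were bright in every sample, with a summed log2 level of 9.12 to 9.59 over the 75th percentile of the array. All levels below are on this scale, log2 of the processed signal over the 75th percentile of the same array, and a difference of 1 is a 2-fold difference. Probes bind with different strength, so levels were compared between samples and never between genes.

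The mammalian clock is a feedback loop of transcription. ARNTL and CLOCK form a dimer that binds E-boxes and activates the Per and Cry genes, whose proteins return to the nucleus and block the dimer. The same dimer activates Nr1d1 and Nr1d2, whose products REV-ERBalpha and REV-ERBbeta repress Arntl through ROR/REV-ERB elements, so that Arntl peaks nearly opposite to its targets. Dbp and Tef encode PAR-type leucine zipper factors that carry the rhythm to D-boxes of metabolic genes, and Dbp is among the genes with the strongest daily swing in liver.

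The sequence upstream of the gene starts was read from RefSeq for rat build GRCr8, from 250 bases before to 50 bases after each start. The table held 11 such promoter entries for 9 of the 10 genes. Those of Arntl, Per2, Tef and Dbp are shown as those of an activator, a repressor and both output factors of the loop. They are printed 5′ to 3′ along the strand of the gene, and capitals mark a match on either strand to the E-box CACGTG, the E′-box CACGTT, the D-boxes TTATGTAA and TTACGTAA or the ROR/REV-ERB elements ANTAGGTCA and ANTGGGTCA. The coordinates are chr1:176766078-176766377 on the plus strand for Arntl, chr9:99496944-99497243 on the minus strand for Per2, chr7:115206577-115206876 on the plus strand for Tef and chr1:105312006-105312305 on the plus strand for Dbp.
Arntl: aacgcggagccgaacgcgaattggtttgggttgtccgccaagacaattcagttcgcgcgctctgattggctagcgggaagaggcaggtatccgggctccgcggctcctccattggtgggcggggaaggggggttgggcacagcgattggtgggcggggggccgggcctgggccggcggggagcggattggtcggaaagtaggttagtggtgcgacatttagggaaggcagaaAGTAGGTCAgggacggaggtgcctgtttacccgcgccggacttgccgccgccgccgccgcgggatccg
Per2: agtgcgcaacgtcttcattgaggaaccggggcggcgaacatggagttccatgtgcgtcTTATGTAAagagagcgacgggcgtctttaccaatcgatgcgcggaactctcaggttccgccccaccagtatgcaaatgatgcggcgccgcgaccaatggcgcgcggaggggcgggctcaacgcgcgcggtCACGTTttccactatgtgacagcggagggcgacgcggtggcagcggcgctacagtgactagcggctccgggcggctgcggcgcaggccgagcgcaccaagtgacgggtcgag
Tef: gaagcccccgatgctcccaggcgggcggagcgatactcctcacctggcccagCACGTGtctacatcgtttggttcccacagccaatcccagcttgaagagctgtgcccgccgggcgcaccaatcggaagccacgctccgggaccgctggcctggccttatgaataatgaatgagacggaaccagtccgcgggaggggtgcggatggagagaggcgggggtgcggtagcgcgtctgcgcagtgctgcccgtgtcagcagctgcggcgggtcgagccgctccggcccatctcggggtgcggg
Dbp: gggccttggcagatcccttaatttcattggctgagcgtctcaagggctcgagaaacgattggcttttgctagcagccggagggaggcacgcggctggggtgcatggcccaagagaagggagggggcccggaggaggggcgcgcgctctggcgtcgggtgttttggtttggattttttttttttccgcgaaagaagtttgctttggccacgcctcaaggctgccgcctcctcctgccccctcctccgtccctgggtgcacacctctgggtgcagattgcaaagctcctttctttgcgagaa
The window of Arntl held a ROR/REV-ERB element that begins at position -18 from the start, a motif present in 0.657% of all 33469 rat promoter windows. The window of Per2 held an E′-box at -62, a motif found in 4.83% of windows, and a D-box at -192, found in 0.893%. The window of Tef, whose start lies inside the annotated gene, held an E-box at -198, found in 6.42% of windows. Of the genes not shown, Nr1d1 had an E′-box at -174 in the first of its entries and an E-box at -191 in the second. None of these matches overlapped another. The windows of Dbp, Clock, Per1, Per3 and Nr1d2 held no match, which says only that these letters were not in these windows.

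When SHPCs with BM-MCs were set against control SHPCs, Dbp, Tef, Nr1d2, Per2 and Per3 were measured higher in the livers with BM-MCs and Arntl lower, with no overlap between the groups in any of the 6 genes. The size of these differences ran from 1.28-fold for Per3 to 2.30-fold for Dbp. None passed the test after adjustment over all probes: limma with Benjamini-Hochberg adjustment called 0 of 9 members, where 0.0216% of all 23111 probes tested were called. At an unadjusted p under 0.05, 5 of 9 members were higher and 0 lower, beside 16.6% of all probes in either direction and 10.7% in the higher direction. The higher count was 2 without BM-MC replicate 2 and 3 without BM-MC replicate 3 or without any 1 of the controls, and median scaling gave 2 higher and 2 lower. Complete separation of the groups was seen upward in 5 of 9 members, beside 13% of all probes, and downward in 1 of 9, beside 11.6%. The median log2 difference of the members was 0.35, and that of all probes was 0.018. The median of the members was 0.090 with normexp and quantile normalization, and 0.16 both with median scaling and with the set of arrays as a block. Under median scaling the median of all probes was itself -0.17, a shift that the single-gene differences with median scaling share. With the methods' t-test, 2 members were higher at an unadjusted p under 0.05 and 0 after Benjamini-Hochberg adjustment. In RNA from pooled cells, a change in the share of a cell type cannot be told apart from a change of RNA per cell.

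**Figure D1:**
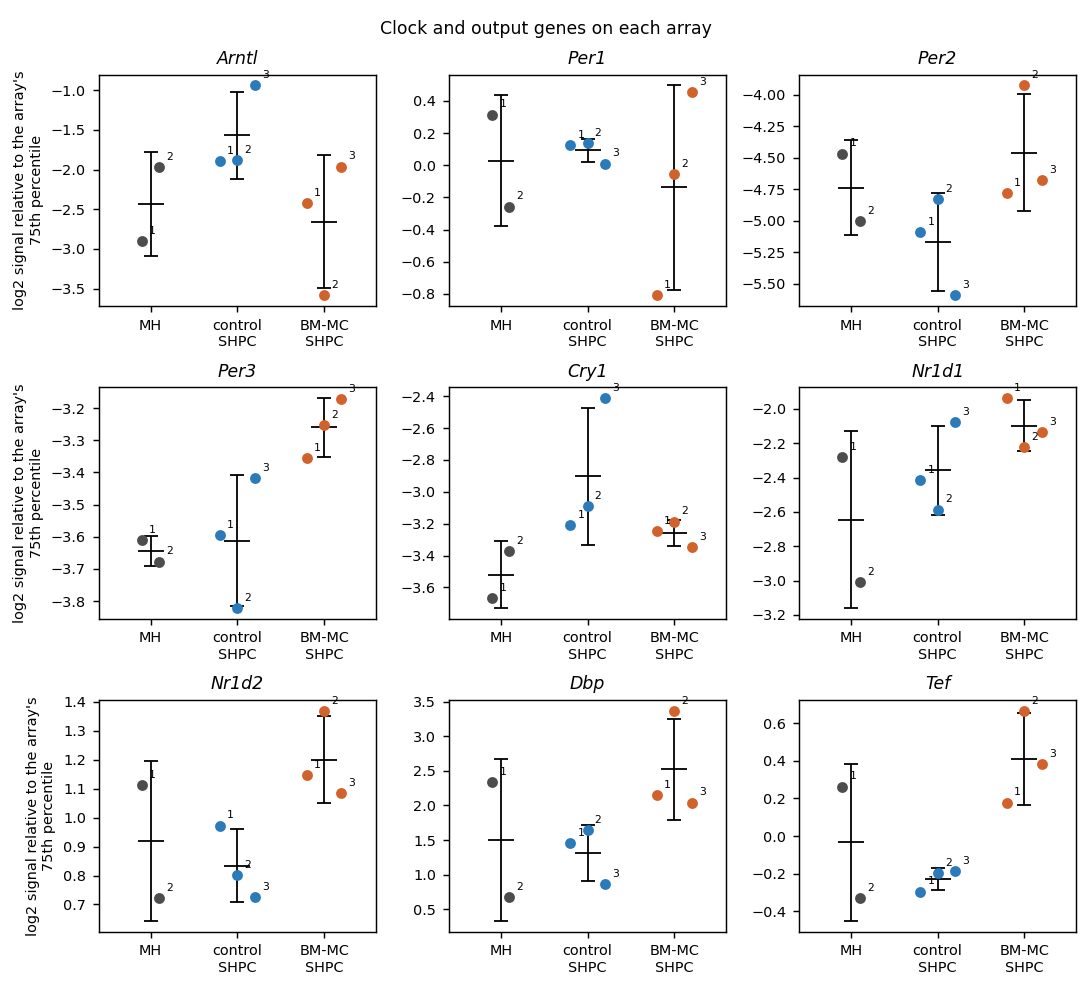
Log2 signal over the 75th percentile of the array (y axis, a separate range for each gene) for the 9 tested clock and output genes in 2 MH, 3 control SHPC and 3 BM-MC SHPC samples (x axis). Points are samples with their replicate number, and bars give the group mean ± SD. Dbp, Tef, Nr1d2, Per2 and Per3 show the 3 BM-MC samples above all control SHPC samples, and Arntl shows the opposite.

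Arntl encodes the activator that pairs with CLOCK. It was at -2.90 and -1.97 in the MHs, at -1.89, -1.88 and -0.93 in control SHPCs and at -2.42, -3.59 and -1.96 in SHPCs with BM-MCs. Control SHPC replicate 3 was the highest of the 8 samples and BM-MC SHPC replicate 2 the lowest, a span of 2.65 or 6.29-fold that exceeded the span of 96.0% of all tested probes. Group means were -2.43 ± 0.66 (SD, n = 2) in MHs, -1.57 ± 0.55 (SD, n = 3) in control SHPCs and -2.66 ± 0.84 (SD, n = 3) with BM-MCs. The log2 difference between the SHPC groups was -1.09 (standard error 0.47, adjusted p = 0.311 from limma). Although the groups did not overlap, BM-MC replicate 3 and control replicate 1 were only 0.07 apart. Without BM-MC replicate 2 the difference was -0.62, and with the set of arrays as a block it was -1.72.

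The period genes encode repressors of the ARNTL and CLOCK dimer. Per2 was at -4.47 and -5.00 in the MHs, at -5.09, -4.83 and -5.59 in control SHPCs and at -4.78, -3.92 and -4.67 with BM-MCs. The 2 SHPC groups were separated by 0.05 at their nearest samples, and the log2 difference was 0.71 (standard error 0.29, adjusted p = 0.301 from limma). It was 0.25 with normexp and quantile normalization, 0.44 without BM-MC replicate 2 and 1.13 with the set of arrays as a block. Per2 was dim, and was well above background on 6 of the 7 arrays with complete marks. The samples that marked the ends for Arntl marked them in reverse for Per2, since BM-MC replicate 2 was highest and control replicate 3 lowest.

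Per3 varied little, with a span of 0.65 over the 8 samples against a median span of 0.73 for all tested probes. It was at -3.61 and -3.68 in the MHs, at -3.59, -3.82 and -3.42 in control SHPCs and at -3.36, -3.25 and -3.17 with BM-MCs. All 3 BM-MC samples were above the 5 other samples. The log2 difference was 0.35 against control SHPCs (standard error 0.14, adjusted p = 0.288 from limma) and 0.38 against MHs (standard error 0.15, adjusted p = 0.345 from limma). Against control SHPCs the difference was 0.16 with median scaling and 0.070 with normexp and quantile normalization, and against MHs it was 0.093 with the set of arrays as a block. Per1 was at 0.32 and -0.26 in the MHs, at 0.13, 0.14 and 0.01 in control SHPCs and at -0.81, -0.06 and 0.45 with BM-MCs. The BM-MC samples held both the highest and the lowest value of Per1, and the log2 difference of -0.23 (standard error 0.31, adjusted p = 0.726 from limma) turned to 0.11 without BM-MC replicate 1. A much dimmer second probe of Per1 gave 0.16, the opposite sign, with its lowest value of -5.06 in control replicate 2.

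Cry1 encodes the partner of the period proteins in the repressor complex. It was at -3.67 and -3.37 in the MHs, at -3.21, -3.09 and -2.41 in control SHPCs and at -3.24, -3.19 and -3.34 with BM-MCs. As for Arntl, the highest sample was control SHPC replicate 3. The SHPC groups overlapped, with a log2 difference of -0.36 (standard error 0.22, adjusted p = 0.445 from limma). Within the second set of arrays on the slide, which held control replicate 3 and the 3 BM-MC samples, the difference was -0.85, and without control replicate 3 it was -0.11.

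Nr1d1 and Nr1d2 encode the REV-ERB repressors of Arntl. Nr1d2 was at 1.11 and 0.72 in the MHs, at 0.97, 0.80 and 0.73 in control SHPCs and at 1.15, 1.37 and 1.08 with BM-MCs. No BM-MC sample was as low as a control, with a log2 difference of 0.37 (standard error 0.13; limma gave an adjusted p = 0.261), which was 0.18 with median scaling. MH replicate 1 lay among the BM-MC samples. Nr1d1 was at -2.28 and -3.01 in the MHs, at -2.41, -2.59 and -2.08 in control SHPCs and at -1.94, -2.22 and -2.13 with BM-MCs. The SHPC groups overlapped for Nr1d1 (log2 difference 0.26, standard error 0.17, adjusted p = 0.455 from limma), and the estimate was 0.15 without control replicate 2, 0.40 without control replicate 3 and -0.022 with the set of arrays as a block. A weaker second probe of Nr1d2 also had BM-MC replicate 2 as its highest sample, at -3.82, but BM-MC replicate 1, at -4.95, lay below the 3 controls at -4.67, -4.63 and -4.76. The 2 probes of Nr1d2 therefore disagreed on the separation of the groups.

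Dbp and Tef are the output factors of the loop. Dbp was at 2.33 and 0.67 in the MHs, at 1.45, 1.64 and 0.86 in control SHPCs and at 2.15, 3.37 and 2.04 with BM-MCs. The 2 MHs alone differed by more than the means of any pair of groups, since MH replicate 1 lay among the BM-MC samples and MH replicate 2 below all others. Dbp spanned 2.69 or 6.47-fold over the 8 samples, more than 96.1% of all tested probes. In order, the group means were 2.52 ± 0.74 (SD, n = 3) with BM-MCs, 1.50 ± 1.17 (SD, n = 2) in MHs and 1.32 ± 0.40 (SD, n = 3) in control SHPCs, and neighbours in this order did not differ beyond their spread. The log2 difference between the SHPC groups was 1.20 (standard error 0.40, adjusted p = 0.245 from limma), and it was 0.78 without BM-MC replicate 2.

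The array repeats a second Dbp probe on 10 spots, which gave a measure of error within an array. On that probe Dbp was at 2.17 and 0.65 in the MHs, at 1.28, 1.35 and 0.70 in control SHPCs and at 1.94, 3.09 and 1.74 with BM-MCs. The 8 samples fell in the same order on both probes. The SD between its spots was 0.042 to 0.102 on an array, far below the span between samples, and its log2 difference between the SHPC groups was 1.15. Tef was at 0.26 and -0.33 in the MHs, at -0.30, -0.20 and -0.19 in control SHPCs and at 0.18, 0.67 and 0.38 with BM-MCs. The 3 controls lay within 0.11 of each other, below every BM-MC sample, and the log2 difference was 0.64 (standard error 0.15, adjusted p = 0.167 from limma), the lowest adjusted p among the members in this comparison.

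**Figure D2:**
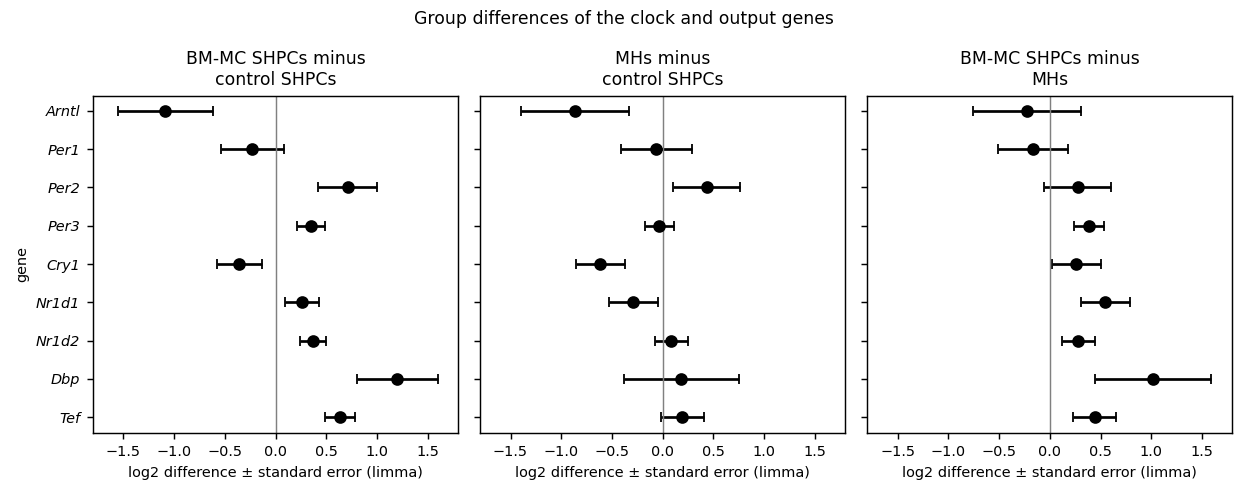
Log2 difference ± standard error from limma (x axis) of the 9 tested clock and output genes (y axis) in 3 comparisons, BM-MC SHPCs minus control SHPCs, MHs minus control SHPCs and BM-MC SHPCs minus MHs. Dbp at 1.20 and Arntl at -1.09 lie farthest from 0 in the first comparison, and no member passed the adjusted test in any of the 3.

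Between MHs and control SHPCs, limma called 0 of 9 members, beside 1.13% of all probes. At an unadjusted p under 0.05, 0 members were higher and 1 was lower, beside 19.2% of all probes in either direction. This gene was Cry1, at a log2 difference of -0.62 (standard error 0.24, adjusted p = 0.234 from limma). Arntl was likewise lower in both MHs than in all control SHPCs, at a log2 difference of -0.86 (standard error 0.53, adjusted p = 0.406 from limma), where MH replicate 2 and control replicate 1 were 0.08 apart. Leaving out MH replicate 1 gave -0.40 for Arntl and leaving out MH replicate 2 gave -1.33. Without control replicate 3 the differences were -0.55 for Arntl and -0.37 for Cry1. The median log2 difference of the members was -0.03, and that of all probes 0.03. It was -0.35 without MH replicate 1 and 0.22 without MH replicate 2, so its sign rested on which MH sample was kept.

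Between SHPCs with BM-MCs and MHs, limma called 0 of 9 members, beside 0.338% of all probes. On the brightest probe of each gene, only Per3 had an unadjusted p under 0.05, beside 13.3% of all probes in either direction. The weaker second probe of Nr1d2, at -5.10 and -5.36 in the MHs, was 0.88 higher with BM-MCs (adjusted p = 0.309 from limma) without overlap, whereas the groups overlapped on the brighter probe, at 0.28. Without MH replicate 1 the count was 4, without BM-MC replicate 1 it was 2, and it was 0 without MH replicate 2 and without BM-MC replicate 2 or 3. Nr1d1 was above both MHs in every BM-MC sample, with a log2 difference of 0.55 (standard error 0.24, adjusted p = 0.388 from limma), as was Cry1, with 0.26 (standard error 0.24, adjusted p = 0.657 from limma). For Nr1d1 it was 0.18 without MH replicate 2, 0.91 without MH replicate 1 and 0.13 with the set of arrays as a block, and for Cry1 it was 0.11 without MH replicate 1, 0.41 without MH replicate 2 and -0.48 with the block. The comparisons share samples, and their values for Dbp were 1.20 between the SHPC groups, 0.18 for MHs against control SHPCs and 1.02 for SHPCs with BM-MCs against MHs.

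Several members had their extremes in the same samples. BM-MC SHPC replicate 2 was the highest of the 8 samples for Per2, Dbp, Tef and Nr1d2 and the lowest for Arntl. Control SHPC replicate 3 was the highest for Arntl and Cry1 and the lowest for Per2. MH replicate 2 was the lowest for Dbp, Tef, Nr1d1 and Nr1d2. Control SHPC replicate 1 held no extreme of any member.

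**Figure D3:**
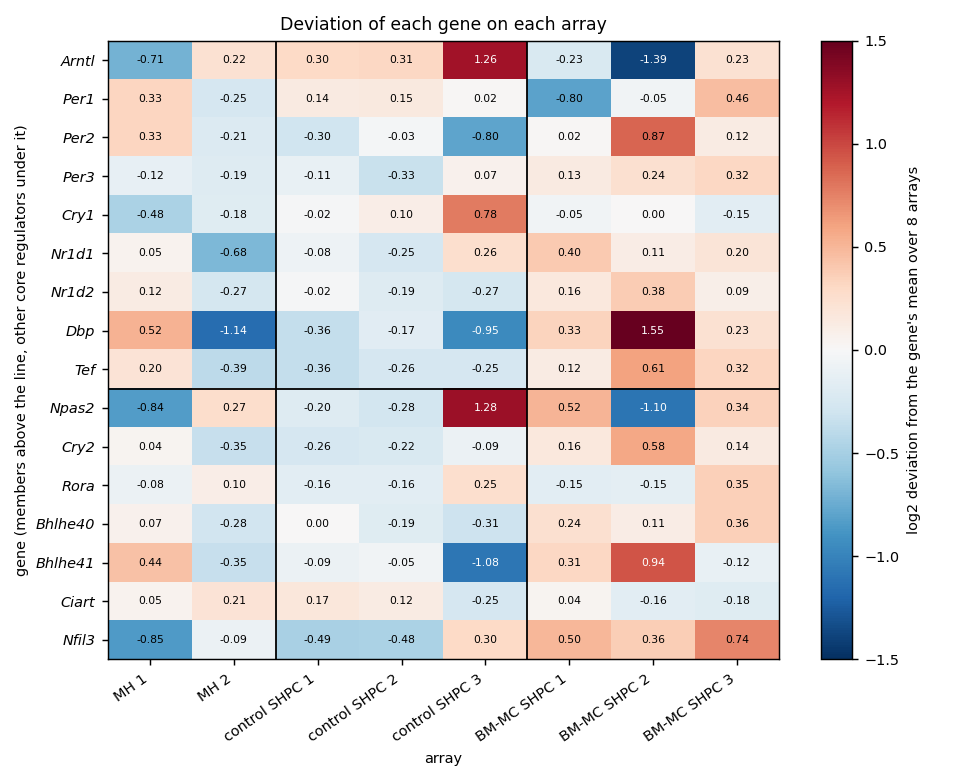
Log2 deviation of each gene from its own mean over the 8 arrays (colour and printed value, with the colour held constant beyond the ends of the scale) for the 9 tested members above the line and 7 other core clock regulators under it (y axis), by array (x axis). BM-MC SHPC 2 is low for Arntl and Npas2 and high for Per2, Dbp, Tef and Bhlhe41, and control SHPC 3 has the opposite sign for each of them.

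Over the 8 samples, Arntl and Dbp ran in opposite directions (Pearson r = -0.874, exact permutation p = 0.0072; Spearman rho = -0.738, exact permutation p = 0.046). Without MH replicate 2 and BM-MC replicate 2, the samples farthest from the median of Dbp, r was -0.940, and without control replicate 3 and BM-MC replicate 2, those farthest from the median of Arntl, it was -0.641. After the mean of each group was removed it was -0.924, so samples of the same group also ran in opposite directions. Both genes were measured in the same RNA and scaled by the same percentile. With median scaling r was -0.893, and with no scaling it was -0.897. Each set of arrays on the slide held 4 samples, too few for a value of its own, and r was -0.920 after the mean of each set was removed.

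Per2, Tef and Nr1d2 ran with Dbp. Pearson's r was 0.909 for Per2 (exact permutation p = 0.0031; rho = 0.905, exact permutation p = 0.0046), 0.913 for Tef (exact permutation p = 0.0013; rho = 0.857, exact permutation p = 0.011) and 0.952 for Nr1d2 (exact permutation p = 0.00042; rho = 0.952, exact permutation p = 0.0011). Without the 2 farthest samples these values were 0.965, 0.793 and 0.889, and with group means removed they were 0.914, 0.860 and 0.918. The r with Dbp was 0.052 for Per1, 0.491 for Per3, 0.476 for Nr1d1 and -0.387 for Cry1, with exact permutation p of 0.90, 0.22, 0.24 and 0.34. Without MH replicate 2 and BM-MC replicate 2 these were -0.056, 0.130, 0.112 and -0.921, so the value for Cry1 depended on those samples. Per2 ran opposite to Arntl (r = -0.958, exact permutation p = 0.0012; rho = -0.833, exact permutation p = 0.015), and r was -0.764 without control replicate 3 and BM-MC replicate 2. The r with Arntl was -0.854 for Nr1d2 and -0.757 for Tef, with exact permutation p of 0.0058 and 0.027. Spearman's rho was -0.738 and -0.548, with exact permutation p of 0.046 and 0.17, and r without the same 2 samples was -0.619 and -0.570. For Nr1d1, Per1, Per3 and Cry1 Pearson's r with Arntl over the 8 samples was -0.087, 0.084, -0.234 and 0.642. The exact permutation p was 0.83, 0.83, 0.58 and 0.092. Without control replicate 3 and BM-MC replicate 2 these r values were -0.424, 0.094, -0.090 and 0.784.

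**Figure D4:**
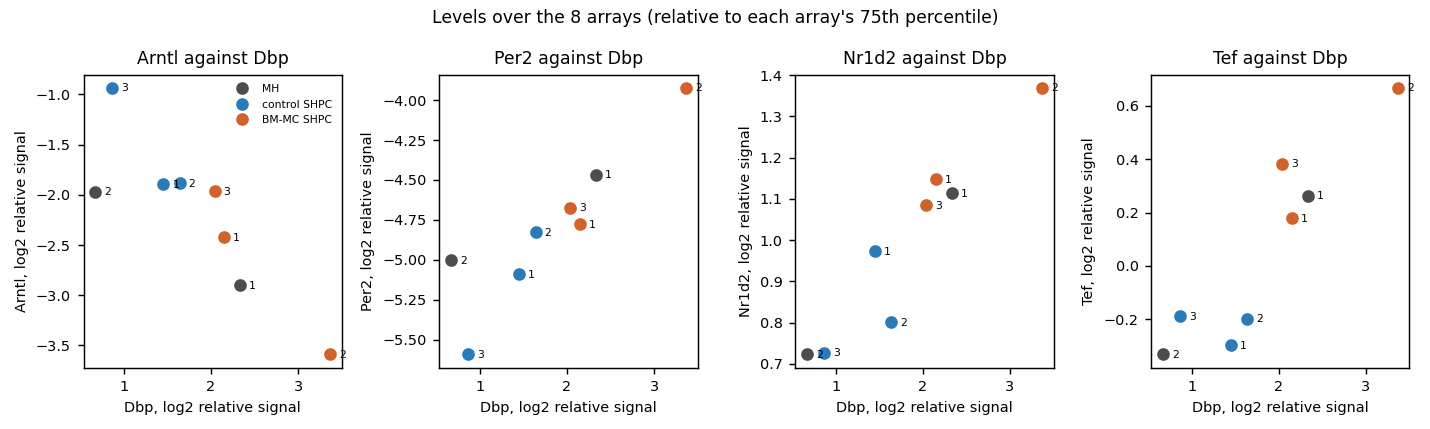
Level of Arntl, Per2, Nr1d2 and Tef (y axes) against the level of Dbp (x axis) in the 8 samples, all as log2 signal over the 75th percentile of the array. Points are samples with their replicate number, coloured by group. Arntl is lower where Dbp is higher (r = -0.874), the other genes are higher with it (r = 0.909, 0.952 and 0.913), and MH 1 lies among the BM-MC samples on the Dbp axis while MH 2 is the lowest of all.

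These correlations were among 30 computed with Dbp or Arntl and rest on 8 samples whose independence is not known. When the same exact test was run for every one of 22969 probes with a value on all arrays, 7.49% had a p under 0.05 with Dbp and 13.3% with Arntl. After Benjamini-Hochberg adjustment over all of these probes, the lowest adjusted p was 0.0814 for Dbp and 0.0949 for Arntl, so no probe passed. The adjusted exact permutation p was 0.558 for Arntl with Dbp, 0.443 for Per2, 0.400 for Tef and 0.346 for Nr1d2. As a description, 0.583% of the probes had an r with Dbp as low as that of Arntl, and 0.131%, 0.113% and 0.0305% had one as high as those of Per2, Tef and Nr1d2. Of 14382 genes outside the lists, the 3 most like Dbp over the 8 samples were Foxa1, a liver pioneer factor (r = 0.954), Stxbp2 (r = 0.953) and LOC102549114 (r = 0.943). The 3 most like Arntl were Tmcc3 (r = 0.980), Tmed1 (r = 0.979) and Heatr1 (r = 0.975).

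Among the other core regulators, Npas2, the relative of Clock that also pairs with ARNTL, was at -4.48 and -3.37 in the MHs, at -3.84, -3.92 and -2.36 in control SHPCs and at -3.13, -4.74 and -3.30 with BM-MCs. It shared its highest and lowest sample with Arntl, and its r with Arntl was 0.851 (exact permutation p = 0.010; rho = 0.548, exact permutation p = 0.17), or 0.459 without control replicate 3 and BM-MC replicate 2, so the relation rests on those samples. Bhlhe41, a repressor that competes for E-boxes, was at -3.41 and -4.19 in the MHs, at -3.93, -3.89 and -4.92 in control SHPCs and at -3.54, -2.90 and -3.96 with BM-MCs. Its r with Arntl was -0.971 (exact permutation p = 0.00060; rho = -0.762, exact permutation p = 0.037), and -0.883 without the same 2 samples. After adjustment over all probes these exact permutation p-values were 0.226 for Npas2 and 0.117 for Bhlhe41.

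Nfil3, the repressor that competes with DBP and TEF for D-boxes, was at -1.95 and -1.19 in the MHs, at -1.58, -1.57 and -0.80 in control SHPCs and at -0.60, -0.73 and -0.36 with BM-MCs. Every BM-MC sample was above every other sample. Its log2 difference between the SHPC groups was 0.75 (adjusted p = 0.241 from limma), and 0.23 with the set of arrays as a block. Without control replicate 3 it was 1.02 (adjusted p = 0.043 from limma), a setting in which the calls over all probes went from 5 to 530. Over the 20 alternatives its adjusted p ran from 0.043 to 0.692.

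Cry2 and Bhlhe40 also separated the SHPC groups upward, as did 13% of all probes, at log2 differences of 0.49 (adjusted p = 0.235 from limma) and 0.40 (adjusted p = 0.243 from limma). Median scaling gave 0.29 for Cry2 and 0.21 for Bhlhe40, and normexp with quantile normalization gave 0.19 for Bhlhe40. Bhlhe41 had 0.78, Npas2 -0.35, Ciart -0.11 and Rora 0.04 with overlapping groups. For Bhlhe41 it was 0.45 without control replicate 3 and 1.46 with the set of arrays as a block. The signs for Npas2, Ciart and Rora turned under at least 1 alternative. Of the other clock regulators listed, 14 were tested, and 3 were higher and 0 lower with BM-MCs at an unadjusted p under 0.05, beside 16.6% of all probes in either direction and 10.7% higher.

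Of 12 genes known to follow the clock in liver, all tested, among them Wee1, Nampt, Por, Cyp7a1 and Elovl3, 0 were higher and 0 lower at an unadjusted p under 0.05 with BM-MCs, beside 16.6% of all probes in either direction, and the median log2 difference was -0.05. The lowest p was that of Wee1, a cell cycle kinase, at -0.50 (adjusted p = 0.338 from limma), which was -0.29 without control replicate 2 and -0.040 with the set of arrays as a block. Between MHs and control SHPCs 3 of 12 were higher and 1 lower, beside 19.2% of all probes in either direction, and Alas1, the first enzyme of heme synthesis, was at 1.23 (adjusted p = 0.128 from limma). Between SHPCs with BM-MCs and MHs 0 were higher and 3 lower, beside 13.3% of all probes, and Avpr1a, a vasopressin receptor, was at -0.70 (adjusted p = 0.267 from limma). Avpr1a was at -1.15 with the set of arrays as a block. Timeless, from the list of other regulators, was at -0.76 in MHs against control SHPCs (adjusted p = 0.164 from limma), and at -0.39 with normexp and quantile normalization.

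Genes that respond to glucocorticoids, feeding or body temperature, which also vary over the day, were listed beside the clock. Of 12 tested, 1 was higher and 1 lower with BM-MCs at an unadjusted p under 0.05, near the 16.6% of all probes, namely the cold-inducible Cirbp at 0.46 (adjusted p = 0.255 from limma) and the glucocorticoid target Fkbp5 at -0.53 (adjusted p = 0.275 from limma). Cirbp had overlapping SHPC groups on its other tested probes, at 0.27 and 0.26, and was at 0.27 with median scaling, and Fkbp5 at -0.31 with the set of arrays as a block. Between SHPCs with BM-MCs and MHs, 3 were higher and 1 lower, beside 13.3% of all probes, with Tat, a glucocorticoid-induced enzyme of tyrosine breakdown, at 1.02 and Pck1, the gluconeogenic enzyme, at 0.86 (adjusted p = 0.306 from limma for both). With the set of arrays as a block Tat was at 0.42 and Pck1 at 0.12. In MHs against control SHPCs, 1 was higher and 1 lower, beside 19.2% of all probes, and the heat shock gene Hsph1 was at 0.45 (adjusted p = 0.156 from limma).

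Markers of granulocytes and of dividing cells differed in the same comparison, below the adjusted threshold. All 3 of 3 granulocyte markers were lower in every BM-MC sample than in every control (lowest adjusted p = 0.0676 from limma), with summed levels of -1.46 to -1.06 against 0.17 to 0.65, and MH replicates 1 and 2 were at -1.34 and 0.59. Of all probes, 11.6% were separated downward in this comparison. All 5 of 5 proliferation markers were likewise lower with BM-MCs on their brightest probes (lowest adjusted p = 0.142 from limma), at 0.59 to 1.44 against 1.78 to 2.19. A dimmer tested probe of Mki67 overlapped, with BM-MC replicate 3 at -3.05 and the controls at -3.19, -3.18 and -2.70. In MHs, at -1.33 to -0.98, limma called all 5 lower than in control SHPCs, beside 1.13% of all probes called. It also called all 5 higher with BM-MCs than in MHs (adjusted p = 0.0245 to 0.0400), beside 0.338% of all probes. Summed Kupffer cell markers were at 4.87 to 5.40 with BM-MCs and at 4.52 to 5.07 in controls, which overlapped. At an unadjusted p under 0.05, 1 of 5 Kupffer, 2 of 4 endothelial and 1 of 5 stellate or matrix markers were higher with BM-MCs and 1 of 4 biliary markers was lower, beside 16.6% of all probes in either direction and 10.7% higher. At this threshold 3 of 5 Kupffer, 1 of 4 endothelial and 1 of 5 stellate or matrix markers were higher in MHs than in control SHPCs. Lower in MHs were 2 of 6 hepatocyte, 2 of 5 stellate or matrix and 1 of 4 biliary markers, beside 19.2% of all probes in either direction. Against MHs, 1 of 6 hepatocyte and 3 of 5 stellate or matrix markers were higher with BM-MCs and 1 of 5 Kupffer markers lower, beside 13.3%. The part of these cells, of the position on the slide and of the hour of sampling in the levels of the clock genes was not tested.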

How the data were processed

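RNA from LMD samples was hybridised to 1-colour Agilent rat arrays. The values deposited by the authors are the processed signals of Agilent Feature Extraction 10.7, background-subtracted intensity values that had not been scaled between arrays. Only 20903 of 62976 features are present in the scanner file of control SHPC replicate 2, so signals came from the deposited value table, and background marks from the 7 complete files. The file headers name build rn4, and no coordinate of the array was used.

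Outlier spots were dropped, signals were divided by the array's 75th percentile and taken to log2, and repeated spots were averaged per probe. The scanner file of control SHPC replicate 2 gave outlier marks only for the features it holds, so its other spots were all kept. A probe entered the tests when at least 3 of the 7 arrays marked it well above background, which left 23111 probes for limma 3.58.1 in R 4.3.3 and Benjamini-Hochberg adjustment over all of them, at a threshold of 0.05. SHPCs with and without BM-MCs were compared in a fit of 6 samples, and MHs in a fit of all 8. Correlations used Pearson's r and Spearman's rho with 2-sided exact permutation tests. The fit was tested on simulated data before use. Arrays 1 to 4 of the slide held the MHs and control SHPC replicates 1 and 2, and the second set of 4 held the BM-MC samples with control SHPC replicate 3. With 8 arrays, precision is limited by their number.

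Named were all members, the core regulators of the loop, the 3 other listed genes outside the cell type markers with the lowest p in each comparison, and the 3 genes most correlated with Dbp and with Arntl. Differences from MHs were named for members whose groups did not overlap or that had an unadjusted p under 0.05. The members and lists were chosen with earlier results of these data known.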

Additional observations from a re-analysis of the deposited data

Results flagged for a closer look

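A second Per3 probe, left out of the tests because it was dim, was well above background in BM-MC SHPC replicate 2 only, at a log2 level of -5.21 against the array's 75th percentile, while the 7 other arrays gave -8.41 to -7.62. The signal rests on 1 spot of 1 array, and the tested Per3 probe did not stand apart there, at -3.25 against -3.36 and -3.17 in the other BM-MC samples.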

How the results depend on the processing

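No member was called at an adjusted p under 0.05 in any alternative of the 3 comparisons. The count of members at an unadjusted p under 0.05 was less stable. With BM-MCs against control SHPCs, 5 members were higher and 0 lower. The higher count was 3 with an intensity trend, with quantile normalization and with normexp (run with quantile normalization on 7 arrays), 2 with median scaling, with no scaling and with the methods' t-test, and 2 to 4 when each sample was left out. The lower count was 1 with the filter on every array, with an intensity trend, with no scaling and with normexp, 2 with median scaling and with the set of arrays as a block, and 0 to 1 when each sample was left out. The median member difference of 0.35 was 0.16 with median scaling, 0.090 with normexp, 0.25 with quantile normalization, 0.16 with the set of arrays as a block and 0.25 to 0.40 when each sample was left out. Median scaling also moved the median of all probes from 0.02 to -0.17, below the member median.

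For MHs against control SHPCs, the lower count of 1 was 0 with no scaling, in a fit of the 2 groups alone and with the methods' t-test, and the median member difference ran from -0.35 to 0.22 when each sample was left out. For SHPCs with BM-MCs against MHs, the higher count of 1 was 2 with the filter on every array and with an intensity trend, 0 with median scaling, no scaling, quantile normalization and the set of arrays as a block, and 0 to 4 when each sample was left out.

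Replicate numbers were not taken to pair the samples. Deviations of same-numbered SHPC samples correlated at 0.133, 0.078 and 0.171 over the probes and those of differently numbered ones at -0.154 to 0.082, the highest being control replicate 2 with BM-MC replicate 1. With the replicate block, at an unadjusted p under 0.05, the lower count was 1 between the SHPC groups and 0 for MHs against controls, and the higher count was 0 for BM-MCs against MHs.

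Some signs turned. With BM-MCs against control SHPCs, Rora was at 0.04 and turned to -0.15 with median scaling, -0.083 with normexp and -0.23 with the set of arrays as a block, and ran from -0.13 to 0.17 when each sample was left out. With the set of arrays as a block, which leaves control replicate 3 as the only control beside the BM-MC samples, Nr1d1 was at -0.022 and Ciart at 0.15, and Cry1 was at -0.48 against MHs. When each sample was left out, Per1 ran from -0.53 to 0.11 and Npas2 from -0.64 to 0.16. The signs of Dbp, Tef, Per2, Per3, Nr1d2, Arntl and Cry1 between the SHPC groups held in every alternative, except that Per2 was not tested with the filter on every array, with Dbp at 0.78 to 1.65 and Arntl at -1.72 to -0.62. The correlation of Dbp with Arntl ran from -0.968 to -0.738 when each sample was left out, a check chosen after the data were seen. Over all probes, the 5 calls between the SHPC groups ran from 0 to 530, the latter without control SHPC replicate 3, the 262 calls in MHs from 0 to 559 and the 78 calls against MHs from 0 to 130. The cause of these shifts was not tested. Clock, on 2 dim probes, gives no level at this signal over background.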
